A study of Homo sapiens with 5 samples.

Results

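Small interfering RNAs (siRNAs) were given to 3 of the 5 cultures measured, and the expression of 18239 genes on those 3 arrays was compared with that on the other 2 arrays. The siRNA arrays were labelled siNT (a non-targeting siRNA), siAURKA-1 and siAURKA-2 (either of 2 siRNAs against AURKA, each at 10 nM), and the arrays without siRNA were labelled DMSO (vehicle) and MLN8237 (100 nM of alisertib, an inhibitor of Aurora kinase A). All 5 were cultures of GFP-SAS, a line derived from a squamous carcinoma of the human tongue that carries green fluorescent protein, harvested after 24 h, with 1 array per treatment. A gene was counted as separated when its values on all 3 siRNA arrays lay on one side of both other arrays. The distance between the nearest arrays of the 2 arms is called the gap, positive where the siRNA arrays lay above. The labels name no transfection reagent and do not say whether the DMSO and MLN8237 cells were mock transfected. The siRNA duplex, its delivery and the absence of DMSO solvent therefore cannot be told apart. The dose of siNT is not given here because its label can be read in more than 1 way.

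The values are log2 signals that had been centred per probe set, so that the median of the 5 arrays was 0. They compare arrays and hold no expression level, so the cell type given in the labels could not be checked against marker levels. In a separated gene the middle of the 5 values belongs to the innermost siRNA array, which is why 1 siRNA array usually reads 0.00. No treatment had a replicate, and the spread within an arm is a spread between different treatments. In these bulk samples, less RNA per cell and fewer cells of a kind cannot be told apart.

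An siRNA is a short RNA duplex that enters the cytoplasm inside a lipid or polymer carrier, where AGO2 of the RNA-induced silencing complex keeps one strand and cuts transcripts that match it. Duplex RNA can also be read as a sign of a virus: the endosomal receptor TLR3 and the cytosolic receptors RIGI and IFIH1 signal through the kinase TBK1 and the factor IRF3 to type I interferon, which switches on interferon-stimulated genes through the IRF9-containing complex ISGF3. The carrier itself passes through endosomes and lysosomes and brings lipid into the cell. Loss of Aurora kinase A, a kinase of centrosomes and the mitotic spindle, acts on cell division, so only siNT carries siRNA without a loss of AURKA.

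The target gene was read first. AURKA, on chromosome 20 and read by 1 probe set, had values of 0.00 on the siNT array, -3.36 on the siAURKA-1 array and -2.64 on the siAURKA-2 array, against 0.15 on the DMSO array and 0.64 on the MLN8237 array. Both arrays with siRNAs against AURKA were far below the other 3. The arms did not overlap for this gene, with a gap of -0.15 set by siNT and DMSO.

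RNAs added to every sample during labelling and hybridization also differed between the arms. Of 24 probe sets for the bacterial poly-A control RNAs (dap, lys, phe and thr), which are mixed into total RNA before labelling, 22 lay above on all 3 siRNA arrays and 0 below. Their medians were 0.00 on siNT, 0.17 on siAURKA-1 and 0.14 on siAURKA-2, against -0.48 on DMSO and -0.11 on MLN8237. All 9 probe sets of the hybridization controls (bioB, bioC, bioD and cre) lay above on the siRNA arrays too, with medians of 0.00, 0.10 and 0.03 on siNT, siAURKA-1 and siAURKA-2, against -0.22 on DMSO and -0.12 on MLN8237. Among 23 probe sets of nonspecific probes, sorted by their number of G and C bases, 0 lay above and 4 lay below on the siRNA arrays. At 25 G and C bases they read -0.11 on siNT, -0.09 on siAURKA-1 and 0.00 on siAURKA-2, against 0.42 on DMSO and 0.02 on MLN8237. The DMSO array was the farthest from the rest in each of these sets. The 6 control probe sets for the 5 prime, middle and 3 prime parts of ACTB and GAPDH separated the arms in 0 cases. Over all genes, the SD of the values was 0.14 on siNT, 0.26 on siAURKA-1 and 0.21 on siAURKA-2, against 0.12 on DMSO and 0.10 on MLN8237. The widest gap of any added control RNA was 0.37. The part of these differences in the gene results below was not tested, and list counts are given with and without the DMSO array. Omission of an array can only add separated genes, so such counts are set beside the share of all genes under the same omission.

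**Figure D1:**
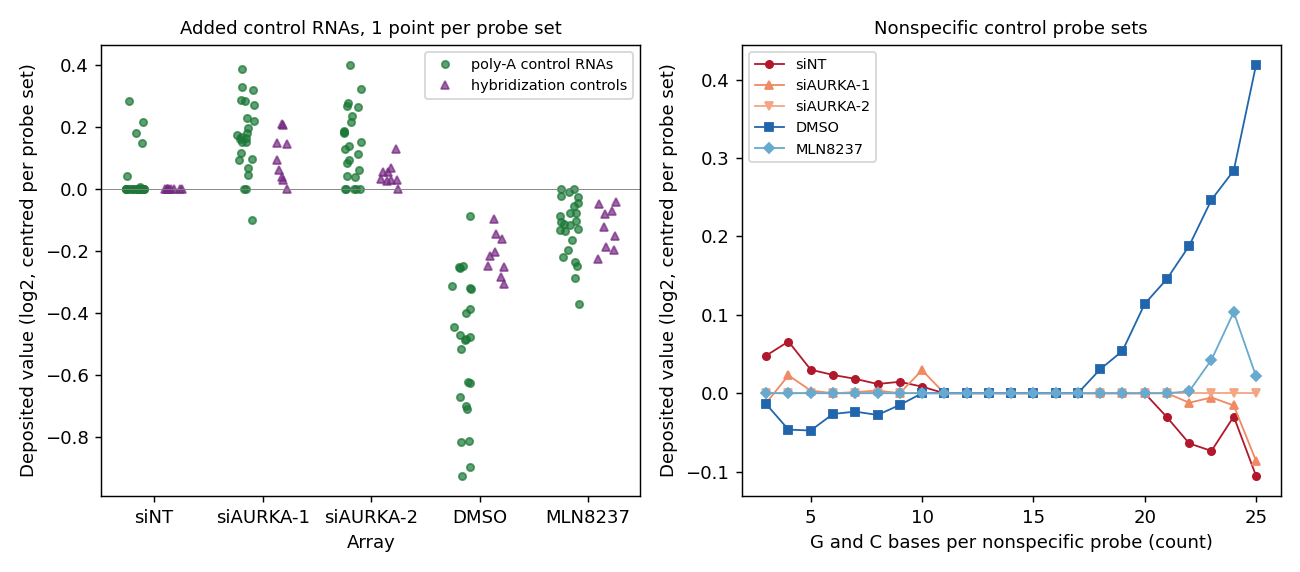
Deposited log2 values, centred per probe set, of control probe sets on each of the 5 arrays. In the left panel each point is 1 probe set, and those of the added control RNAs lie lowest on the DMSO array (poly-A median -0.48) and next lowest on MLN8237 (-0.11). The right panel plots nonspecific probe sets against their number of G and C bases, where the DMSO array reaches 0.42 at 25.

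Among all genes, 2385 lay above on every siRNA array (13.1% of those tested) and 1158 lay below (6.35%). Most of these gaps were narrow. The gap was under 0.1 in 2714 of the 3543 separated genes (76.6%), with a median of 0.05 above and -0.05 below. A further 4130 genes were kept from separating by an exact tie alone. No filter on low signal was possible, so the shares of all genes include genes whose expression is unknown. The lists set beside these shares below were chosen with earlier results of these data known. The gap exceeded the range within either arm in 325 genes above (1.78%) and 97 genes below (0.532%). It reached 1.5-fold in 10 genes above (0.0548%) and 0 below (0.0%), and 2-fold in 1 gene above (0.00548%) and 0 below. Gaps wider than the 0.37 of the added control RNAs were found in 60 genes above and 10 below.

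No gene passed a test of the arms. A limma fit of the 3 siRNA arrays against the other 2 called 0 genes (0.0%) at an adjusted p under 0.05, and its smallest adjusted p was 0.775. At an unadjusted p under 0.05 the fit had 974 genes, 5.34% of all, of which 708 were higher and 266 lower on the siRNA arrays. An exact permutation test of 3 arrays against 2 cannot give a two-sided p below 0.2. The genes below are therefore described by their values on each array, and none of them is reported as a change. The siNT value alone was the innermost of the siRNA arrays in 974 of the 2385 genes above (40.8%) and 520 of the 1158 below (44.9%), and it tied with an AURKA siRNA for that place in 308 and 134 more.

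TFPI had the widest gap of all genes. It encodes tissue factor pathway inhibitor, a secreted and cell-surface brake on coagulation, and lies on chromosome 2. TFPI read 0.08 on siNT, 0.61 on siAURKA-1 and 0.00 on siAURKA-2, against -1.20 on DMSO and -1.11 on MLN8237. The gap was 1.11, or 2.16-fold, and all 3 probe sets were separated the same way, with gaps of 1.03, 0.89 and 1.11. The difference of the arm means was 1.38 with a limma standard error of 0.22 (limma adjusted p = 0.775). It was the 1 gene inside a 2-fold gap, with C1QTNF6 and ERP27 next outside.

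The next gaps are described gene by gene, since the 15 widest were not drawn from any list. C1QTNF6, a secreted protein of the C1q and TNF related family on chromosome 22, read 0.00, 0.28 and 0.10 on siNT, siAURKA-1 and siAURKA-2, against -0.82 on both DMSO and MLN8237. ERP27, a protein of the endoplasmic reticulum related to protein disulfide isomerases, read 0.00, 0.21 and 0.21 on these siRNA arrays, against -0.80 on DMSO and -0.95 on MLN8237. In both genes the arrays of an arm lay closer to each other than to the other arm, and each is read by 1 probe set. DNAJB9 encodes a co-chaperone of the endoplasmic reticulum that acts with BiP and is induced by the unfolded protein response. DNAJB9 read 0.00 on siNT, 0.50 on siAURKA-1 and 0.34 on siAURKA-2, against -0.87 on DMSO and -0.74 on MLN8237, with 2 of 3 probe sets separated the same way. ITGA2, the collagen-binding integrin alpha 2 subunit, read 0.00, 0.13 and 0.25 on siNT, siAURKA-1 and siAURKA-2, against -0.89 on DMSO and -0.56 on MLN8237. DSG2, a cadherin of desmosomes, read 0.00, 0.31 and 0.01 on the siRNA arrays in the same order, against -0.56 on DMSO and -0.58 on MLN8237. For both adhesion genes every probe set was separated the same way (2 of 2 and 3 of 3).

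ACSL5, GPAT3 and INSIG1 have roles in lipid metabolism, whose lists are counted further on. ACSL5, which activates long-chain fatty acids by joining them to coenzyme A, read 0.39 on siNT, 0.00 on siAURKA-1 and 0.16 on siAURKA-2, against -1.10 on DMSO and -0.79 on MLN8237. A probe set of ACSL5 without a type suffix had a gap of 0.00, while the other 2 had 0.79 each. GPAT3, the acyltransferase of the first step of triglyceride synthesis, read 0.36, 0.33 and 0.00 on siNT, siAURKA-1 and siAURKA-2, against -0.68 on DMSO and -0.65 on MLN8237. INSIG1, which holds the sterol-sensing escort protein SCAP in the endoplasmic reticulum and is itself a sterol-regulated gene, read 0.00, 0.34 and 0.33 on the siRNA arrays, against -1.11 on DMSO and -0.55 on MLN8237. The DMSO array was the lowest for ACSL5 and INSIG1, and the gap was set by MLN8237.

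IFI16, CASP4 and GBP1 are known from innate immunity, and of these the interferon-stimulated list holds GBP1. IFI16, a nuclear sensor of DNA that interferon induces, read 0.07 on siNT, 0.00 on siAURKA-1 and 0.11 on siAURKA-2, against -0.66 on DMSO and -1.02 on MLN8237. CASP4, the inflammatory caspase that binds bacterial lipopolysaccharide in the cytosol, read 0.00, 0.35 and 0.24 on siNT, siAURKA-1 and siAURKA-2, against -0.61 on DMSO and -0.76 on MLN8237. All 7 probe sets of CASP4 and all 3 of IFI16 were separated the same way. GBP1, an interferon-inducible GTPase on chromosome 1 that coats intracellular bacteria, read 1.19 on siNT, 0.00 on siAURKA-1 and 1.04 on siAURKA-2, against -0.58 on DMSO and -0.83 on MLN8237. The spread of GBP1 within the siRNA arm was wider than its gap of 0.58, although its 5 probe sets were separated the same way. Most GBP1 probe sets are of a type that can share probes with related genes, so its signal cannot be told apart from that of close paralogs.

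The remaining genes of the 15 widest gaps above have other roles. FBXO32 (atrogin-1), the substrate-recognition subunit of a ubiquitin ligase best known from muscle wasting, had a gap of 0.67, and SRPX, a sushi-repeat protein, had a gap of 0.59. MOSPD2, which tethers the endoplasmic reticulum to other organelles, had a gap of 0.57 with all 3 probe sets the same way. At the 1.5-fold line, CASP4 (0.61) and SRPX (0.59) lay just inside, and GBP1 (0.58) and MOSPD2 (0.57) just outside. All of these 15 genes remained above after each array was shifted to level its hybridization controls, with gaps of 0.25 to 0.95 under that setting, which was chosen after seeing the data. The amounts subtracted were 0.00, 0.10 and 0.03 on siNT, siAURKA-1 and siAURKA-2, -0.22 on DMSO and -0.12 on MLN8237. Gaps this wide could not close under such a shift, so the result is no sign of stability.

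**Figure D2:**
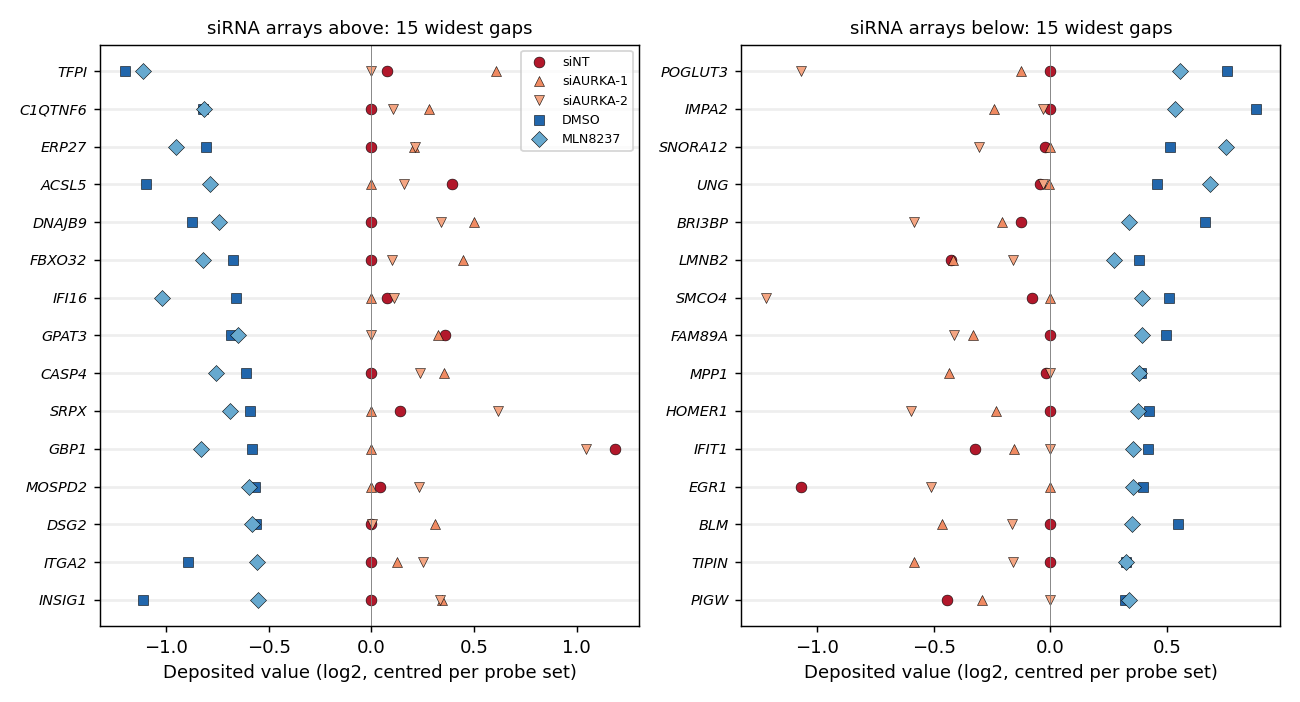
Deposited log2 values, centred per probe set and taken as the median per gene, of the 15 genes with the widest gap above (left) and the 15 with the widest gap below (right), with 1 point per array. TFPI (gap 1.11) heads the left panel and POGLUT3 (gap -0.56) the right. In many rows the 3 siRNA arrays spread more within a gene than the 2 arrays DMSO and MLN8237. The arms hold unequal numbers of arrays, so their spreads are not directly comparable.

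On the lower side no gap reached 1.5-fold, and POGLUT3 and IMPA2 came nearest. POGLUT3, a glucosyltransferase of EGF-like repeats in the endoplasmic reticulum, read 0.00 on siNT, -0.13 on siAURKA-1 and -1.07 on siAURKA-2, against 0.75 on DMSO and 0.56 on MLN8237. IMPA2, an inositol monophosphatase, read 0.00, -0.24 and -0.03 on siNT, siAURKA-1 and siAURKA-2, against 0.88 on DMSO and 0.53 on MLN8237. For POGLUT3 a large part of the arm difference came from the siAURKA-2 array, while the siRNA arrays of IMPA2 were close together. UNG, the uracil-DNA glycosylase that removes uracil from newly made DNA, read -0.04 on siNT, 0.00 on siAURKA-1 and -0.03 on siAURKA-2, against 0.46 on DMSO and 0.68 on MLN8237. Its 3 siRNA arrays were nearly equal, and both probe sets were separated the same way. UNG is counted again in the S-phase list. BLM, the RecQ helicase mutated in Bloom syndrome, had a gap of -0.35. TIPIN, a partner of TIMELESS at replication forks, had a gap of -0.32, and LMNB2, which encodes lamin B2 of the nuclear envelope, had a gap of -0.43.

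EGR1 and IFIT1 stood among the widest gaps below, although both belong to response genes. EGR1, an immediate early transcription factor induced by growth factor and stress signals, read -1.07 on siNT, 0.00 on siAURKA-1 and -0.51 on siAURKA-2, against 0.40 on DMSO and 0.35 on MLN8237, in all 6 probe sets the same way. IFIT1, an interferon-stimulated protein that binds viral RNA by its cap structure, read -0.32, -0.16 and 0.00 on siNT, siAURKA-1 and siAURKA-2, against 0.42 on DMSO and 0.35 on MLN8237. IFIT1 thus lay below where GBP1 lay above, and it is read by 1 probe set. The others of the 15 were SNORA12 (-0.51), a small nucleolar RNA, BRI3BP (-0.46), SMCO4 (-0.39), FAM89A (-0.39), the membrane scaffold MPP1 (-0.38), the synaptic scaffold HOMER1 (-0.37) and PIGW (-0.32), an enzyme of GPI anchor synthesis, each with its gap in parentheses.

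Promoters are shown for GBP1 and IFIT1, which share an interferon response motif and lay on opposite sides. That of DNAJB9 is shown for the widest gap among the unfolded protein response genes. MCM3 was picked from the S-phase genes that lay below and held the E2F motif. Sequences run 5′ to 3′ along the strand of the gene, from 250 bases before its RefSeq start to 50 bases after it, in GRCh38.p14. Capitals mark matches on either strand to the core of the interferon-stimulated response element in GBP1 and IFIT1, to the E2F motif TTTNGCGC in MCM3, and to CCAAT in DNAJB9.
GBP1, chr1:89065159-89065458, minus strand: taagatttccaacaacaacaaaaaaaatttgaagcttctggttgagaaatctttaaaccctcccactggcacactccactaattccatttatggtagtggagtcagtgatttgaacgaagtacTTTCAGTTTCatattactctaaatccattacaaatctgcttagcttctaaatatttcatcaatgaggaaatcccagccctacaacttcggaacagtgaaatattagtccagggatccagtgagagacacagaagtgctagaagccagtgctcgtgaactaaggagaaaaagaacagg
IFIT1, chr10:89392373-89392672, plus strand: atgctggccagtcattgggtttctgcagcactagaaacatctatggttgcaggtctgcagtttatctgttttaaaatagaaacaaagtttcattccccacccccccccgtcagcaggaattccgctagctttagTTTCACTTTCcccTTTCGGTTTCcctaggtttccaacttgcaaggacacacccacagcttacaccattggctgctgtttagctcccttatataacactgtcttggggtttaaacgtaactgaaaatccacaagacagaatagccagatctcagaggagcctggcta
MCM3, chr6:52284693-52284992, minus strand: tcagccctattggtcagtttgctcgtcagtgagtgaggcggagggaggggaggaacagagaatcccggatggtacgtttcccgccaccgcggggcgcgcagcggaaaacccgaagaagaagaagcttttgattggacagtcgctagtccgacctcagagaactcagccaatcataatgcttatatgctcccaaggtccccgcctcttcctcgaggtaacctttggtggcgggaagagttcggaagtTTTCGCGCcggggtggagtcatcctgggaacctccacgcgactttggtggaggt
DNAJB9, chr7:108569624-108569923, plus strand: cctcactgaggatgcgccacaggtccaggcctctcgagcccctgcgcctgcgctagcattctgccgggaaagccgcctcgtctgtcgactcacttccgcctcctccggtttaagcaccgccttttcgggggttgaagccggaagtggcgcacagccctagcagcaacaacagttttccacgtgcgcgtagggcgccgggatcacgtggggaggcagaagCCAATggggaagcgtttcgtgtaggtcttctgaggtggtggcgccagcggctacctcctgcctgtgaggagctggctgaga

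The interferon core was matched once in the GBP1 window and in 2 places in the IFIT1 window. The MCM3 window held the E2F motif across the start, and its presence was fixed in advance by the choice of this promoter. Of all 14492 promoters of measured genes in the RefSeq table, 3.04% held the interferon core, 2.52% the E2F motif and 36.4% CCAAT. Of 32 interferon-stimulated genes with a promoter in the table, 20 held the interferon core, among them 5 of 13 that lay above and 2 of 2 that lay below. The motif was thus present on both sides. A match describes letters in the window and does not locate a bound site.

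The receptors and signalling proteins that read duplex RNA gave small gaps. Of 18 genes for RNA sensing and interferon induction, 5 lay above, 2 below and 11 were not separated, beside 13.1% above and 6.35% below among all genes. Their median difference of arm means was 0.04, against 0.02 over all genes. IFIH1 (MDA5), a cytosolic helicase that senses long duplex RNA, read 0.00 on siNT, 0.20 on siAURKA-1 and 0.28 on siAURKA-2, against -0.35 on DMSO and -0.40 on MLN8237. TLR3, the endosomal receptor of duplex RNA, read 0.02, 0.28 and 0.00 on the siRNA arrays, against -0.12 on DMSO and -0.14 on MLN8237. TBK1 had a gap of 0.19, and TICAM1, the adaptor of TLR3, had a gap of 0.08. RIGI was not separated. With the DMSO array left out, 7 members lay above and 4 below, beside 26.4% and 12.5% of all genes. The 2 members below were the factor IRF3 (-0.02) and IFNL1 (-0.01), at gaps close to 0.

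Of 38 interferon-stimulated genes, 15 lay above (39.5%) and 2 below, beside 13.1% and 6.35% of all genes, and the list's median difference was 0.14. None passed limma, and none reached 1.5-fold. Besides GBP1, UBE2L6, the conjugating enzyme of ISG15, had a gap of 0.24 and IFI35 had a gap of 0.20. ISG20, an RNA exonuclease, read 0.48 on siNT, 0.00 on siAURKA-1 and 1.08 on siAURKA-2, against -0.18 on both DMSO and MLN8237. IFIT2 read 0.00, 0.14 and 1.42 on siNT, siAURKA-1 and siAURKA-2, against -0.10 on DMSO and -0.53 on MLN8237. For IFIT2 the siAURKA-2 array alone was far above the rest, and the gap was 0.10. IRF9, a subunit of ISGF3, read 0.00, 0.26 and 0.57 on these siRNA arrays, against -0.18 on DMSO and -0.14 on MLN8237. Of the 4 IRF9 probe sets, 2 were separated the same way. Genes of antigen processing were among those above, with gaps of 0.19 for the proteasome subunit PSMB9 and 0.10 for the peptide transporter TAP1. On the siNT array alone, 23 of the 38 lay above both DMSO and MLN8237 and 3 below both, beside 36.7% and 26.7% of all genes. Without the DMSO array 24 lay above and 3 below, beside 26.4% and 12.5% of all genes. With the arrays levelled on their hybridization controls, 1 lay above and 11 below, beside 1.18% and 63.6% of all genes.

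**Figure D3:**
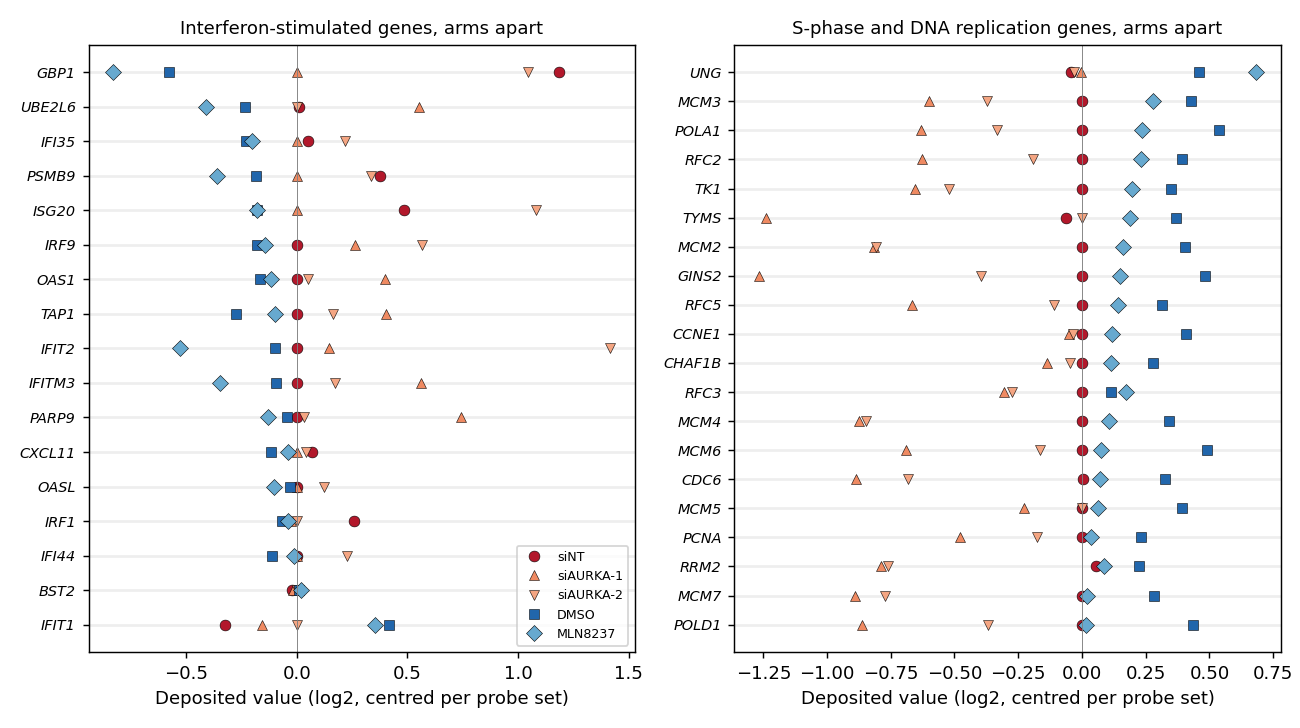
Deposited log2 values, centred per probe set, of the separated members of the interferon-stimulated list (left, 17 genes) and of the S-phase list (right, 20 genes), with 1 point per array, ordered by gap. In the left panel the array farthest to the right differs from gene to gene, and in the right panel siNT lies at or near 0 between the AURKA siRNAs and MLN8237 in most rows.

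NF-kB targets and the silencing machinery showed narrow gaps. Of 24 NF-kB and cytokine genes, 3 lay above (12.5%) and 0 below, beside 13.1% and 6.35% of all genes. NFKBIA, the inhibitor that NF-kB itself induces, had a gap of 0.08. Of 20 genes of RNA interference, 6 lay above and 3 below. AGO2, the slicing subunit of the silencing complex, read 0.25 on siNT, 0.51 on siAURKA-1 and 0.00 on siAURKA-2, against -0.06 on DMSO and -0.11 on MLN8237. TNRC6B, a partner of Argonaute proteins in silencing, had a gap of 0.04, and the nuclear microRNA nuclease DROSHA a gap of -0.06. The probe sets separated the same way were 5 of 10 for TNRC6B and 3 of 5 for DROSHA. The microRNA nuclease DICER1 was not separated. Leaving out DMSO, the counts above and below were 4 and 4 for the NF-kB list and 7 and 4 for the silencing list, beside 26.4% and 12.5% of all genes.

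Of 27 lysosomal genes, 11 lay above (40.7%) and 1 below, beside 13.1% and 6.35% of all genes, with a median difference of 0.17. CTSA, a protective serine carboxypeptidase of lysosomes, read 0.00 on siNT, 0.20 on siAURKA-1 and 0.14 on siAURKA-2, against -0.29 on DMSO and -0.47 on MLN8237. CTSB, a cysteine protease, read 0.05, 0.52 and 0.07 on the siRNA arrays, against -0.31 on DMSO and -0.22 on MLN8237, in all 4 probe sets the same way. PSAP, the precursor of the saposins that help degrade sphingolipids, read 0.00, 0.69 and 0.57 on siNT, siAURKA-1 and siAURKA-2, against -0.19 on DMSO and -0.11 on MLN8237. The membrane protein LAMP1 had a gap of 0.16, and CTSD a gap of 0.09. In 10 of the 12 separated lysosomal genes both AURKA siRNAs lay farther out than siNT, and in 1 more siNT was tied with siAURKA-1. Of 23 autophagy genes, 9 lay above (39.1%) and 0 below, with a median difference of 0.12. WIPI1, which binds phosphoinositide on forming autophagosomes, read 0.00, 0.43 and 0.62 on siNT, siAURKA-1 and siAURKA-2, against -0.47 on DMSO and -0.08 on MLN8237. The cargo receptor NBR1 had a gap of 0.05 and ATG14, a subunit of the kinase complex that starts autophagosomes, a gap of 0.14. The probe sets separated the same way were 3 of 6 for NBR1 and 2 of 4 for ATG14. When DMSO was left out, 14 lysosomal genes lay above and 1 below, and 11 autophagy genes lay above and 0 below, beside 26.4% and 12.5% of all genes. With the arrays levelled on their hybridization controls, 3 lysosomal genes lay above and 5 below, and 0 autophagy genes lay above and 7 below, where 1.18% of all genes lay above and 63.6% below.

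Lipid synthesis genes beyond INSIG1 and ACSL5 were mixed. Of 17 cholesterol synthesis genes, 4 lay above (23.5%) and 0 below, beside 13.1% and 6.35% of all genes, with a median difference of 0.22. The list medians against the mean of DMSO and MLN8237 were -0.003 for siNT, 0.31 for siAURKA-1 and 0.35 for siAURKA-2. On the siNT array alone, 4 of the 17 lay above both DMSO and MLN8237 and 6 below both, beside 36.7% and 26.7% of all genes. In all 4 separated genes both AURKA siRNAs lay farther out than siNT. SC5D, a sterol desaturase of the last steps, read 0.00 on siNT, 0.01 on siAURKA-1 and 0.16 on siAURKA-2, against -0.60 on DMSO and -0.28 on MLN8237. MSMO1, which removes sterol methyl groups, read 0.00, 0.78 and 0.26 on the siRNA arrays, against -0.89 on DMSO and -0.24 on MLN8237. DMSO was the lowest array for both. Leaving out DMSO gave 4 above and 2 below, leaving out MLN8237 gave 11 and 0, and leaving out siNT gave 10 and 0, where 26.4%, 24.6% and 22.0% of all genes lay above. Levelling on the hybridization controls gave 3 above and 4 below, beside 1.18% and 63.6% of all genes. Of 28 genes of fatty acid and phospholipid metabolism, 5 lay above (17.9%) and 3 below (10.7%). PLIN3, a coat protein of lipid droplets, had a gap of 0.16 and ACSL1 a gap of 0.13, the latter with 1 of 2 probe sets separated the same way. FABP5, a fatty acid binding protein of squamous epithelium, read 0.00, -1.07 and -1.05 on siNT, siAURKA-1 and siAURKA-2, against 0.06 on DMSO and 0.13 on MLN8237. FABP5 was low on both AURKA siRNA arrays and near the DMSO value on siNT. The list had 7 above and 4 below once DMSO was left out, beside 26.4% and 12.5% of all genes.

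Stress response genes did not all lie on one side. Besides DNAJB9, 2 of 24 genes of the unfolded protein and integrated stress responses lay above, and 0 of the 24 lay below, beside 13.1% and 6.35% of all genes. DDIT4, a stress-induced inhibitor of mTORC1, read 0.55 on siNT, 0.00 on siAURKA-1 and 0.39 on siAURKA-2, against -0.28 on DMSO and -0.82 on MLN8237. Of 22 NRF2 targets and metallothioneins, 6 lay above and 0 below, and siNT alone was above both DMSO and MLN8237 in 17 of the 22, beside 36.7% of all genes. TXNRD1, the cytosolic thioredoxin reductase, read 0.26, 0.00 and 0.20 on siNT, siAURKA-1 and siAURKA-2, against -0.27 on DMSO and -0.29 on MLN8237. AKR1C3, an aldo-keto reductase, had a gap of 0.34 with 1 of 2 probe sets separated the same way. FTL, the ferritin light chain, had a gap of 0.19 with all 8 probe sets the same way. siNT was the innermost siRNA array in 0 of these 6 genes.

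Of 15 heat shock genes, 1 lay above, 5 lay below (33.3%) and the rest were not separated, beside 13.1% above and 6.35% below among all genes. Their median difference was -0.21. HSP90AA1, the inducible form of the HSP90 chaperone, read 0.00 on siNT, -0.46 on siAURKA-1 and -0.49 on siAURKA-2, against 0.16 on both DMSO and MLN8237. HSPE1, the mitochondrial co-chaperonin, read -0.42, 0.00 and -0.16 on the siRNA arrays, against 0.26 on DMSO and 0.12 on MLN8237. The co-chaperone DNAJB1 had a gap of -0.12. Leaving out DMSO gave 1 heat shock gene above and 8 below. In the NRF2 list 7 lay above and 1 below without it, and in the unfolded protein list 6 above and 0 below, beside 26.4% and 12.5% of all genes. With the arrays levelled on their hybridization controls, the counts above and below were 0 and 14 for heat shock, 1 and 6 for NRF2, and 1 and 6 for the unfolded protein list, where 1.18% of all genes lay above and 63.6% below.

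Of 43 S-phase genes, 20 lay below (46.5%) and 0 above, beside 6.35% and 13.1% of all genes, and their median difference was -0.53. The list medians against the mean of DMSO and MLN8237 were -0.15 for siNT, -0.93 for siAURKA-1 and -0.50 for siAURKA-2. The siNT array was thus the nearest to the arrays without siRNA, and in 17 of the 20 both AURKA siRNAs lay farther out than siNT. MCM3, a subunit of the replicative helicase, read 0.00 on siNT, -0.60 on siAURKA-1 and -0.37 on siAURKA-2, against 0.43 on DMSO and 0.28 on MLN8237, with all 4 probe sets the same way. TK1, thymidine kinase of the nucleotide salvage pathway, read 0.00, -0.66 and -0.52 on the siRNA arrays, against 0.35 on DMSO and 0.20 on MLN8237. GINS2, a subunit of the same helicase complex, read 0.00, -1.27 and -0.40 on siNT, siAURKA-1 and siAURKA-2, against 0.48 on DMSO and 0.15 on MLN8237. For MCM3, TK1 and GINS2 the siNT array lay between the AURKA siRNA arrays and MLN8237. POLA1, the catalytic subunit of the primase polymerase, had a gap of -0.24, and TYMS, thymidylate synthase, a gap of -0.19. DTL, POLE2 and MCM10 were not separated. On the siNT array alone, 21 of the 43 lay below both DMSO and MLN8237 and 3 above both, beside 26.7% and 36.7% of all genes. Without DMSO 21 lay below, without MLN8237 38 and without siNT 39, with 0 above in each, where 12.5%, 17.6% and 13.1% of all genes lay below. With the arrays levelled on their hybridization controls 36 lay below and 0 above, beside 63.6% and 1.18% of all genes. Of the 20 genes, 18 had a promoter in the RefSeq table and 7 of these held the E2F motif, beside 15 of 38 for the whole list.

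Of 39 G2/M genes, 8 lay below (20.5%) and 0 above, beside 6.35% and 13.1% of all genes, with gaps of -0.09 for CDC20, the activator of the anaphase-promoting complex, and -0.08 for CDCA8, a chromosomal passenger protein. The list medians against the mean of DMSO and MLN8237 were -0.09 for siNT, -0.53 for siAURKA-1 and -0.04 for siAURKA-2. The median of MLN8237 minus DMSO was 0.19 in this list. Without the DMSO array 30 of the 39 lay below and 0 above, and without MLN8237 10 lay below and 2 above, beside 12.5% and 17.6% of all genes below. The count without DMSO thus compares the siRNA arrays with the MLN8237 array alone. Levelled on the hybridization controls, 32 lay below and 0 above, beside 63.6% and 1.18% of all genes. Of 31 ribosome biogenesis genes, 10 lay below (32.3%) and 1 above, with a median difference of -0.19. The list medians against the mean of DMSO and MLN8237 were -0.01 for siNT, -0.20 for siAURKA-1 and -0.28 for siAURKA-2. On the siNT array alone, 11 of the 31 lay above both DMSO and MLN8237 and 11 below both, beside 36.7% and 26.7% of all genes. In 8 of the 11 separated genes both AURKA siRNAs lay farther out than siNT. Without DMSO 12 lay below and 1 above, without MLN8237 17 and 2, and without siNT 22 and 2. Under these omissions 12.5%, 17.6% and 13.1% of all genes lay below, and 26.4%, 24.6% and 22.0% above. RRP1B, a nucleolar protein, read -0.10, -0.37 and -0.12 on siNT, siAURKA-1 and siAURKA-2, against 0.18 on DMSO and 0.19 on MLN8237. BOP1, of the large-subunit processing complex, had a gap of -0.04, with -0.79 on siAURKA-1 as its lowest array. Of 14 replication-dependent histone genes, 2 lay above and 2 below, and of 22 ribosomal protein genes 4 lay above and 0 below with gaps up to 0.05. Levelled in the same way, 0 ribosomal protein genes lay above and 21 below. Of 23 p53 targets, 2 lay above and 2 below. CDKN1A, which encodes the cell cycle inhibitor p21, read 0.00 on siNT, 1.05 on siAURKA-1 and 0.75 on siAURKA-2, against -0.45 on DMSO and -0.33 on MLN8237. DDB2, a damage-recognition protein that p53 induces, read 0.00, -0.71 and -0.77 on the siRNA arrays, against 0.43 on DMSO and 0.08 on MLN8237. The 2 targets thus lay on opposite sides, and both AURKA siRNAs lay beyond siNT in each. Leaving out DMSO, the counts above and below were 4 and 2 for histones, 9 and 2 for ribosomal proteins, and 3 and 3 for p53 targets. Under this omission 26.4% of all genes lay above and 12.5% below.

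**Figure D4:**
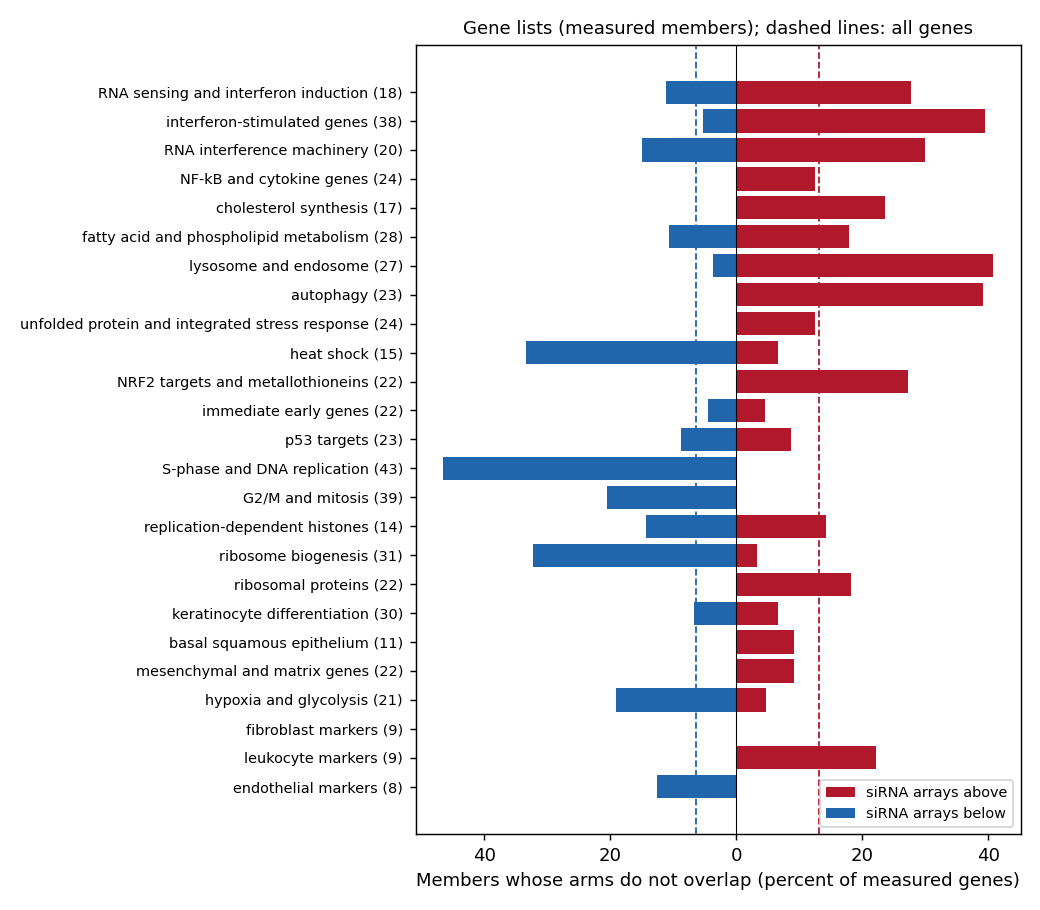
Share of the measured members of each of 25 gene lists whose arms do not overlap, in percent, with members above on the siRNA arrays to the right and below to the left. Dashed lines mark the shares over all genes (13.1% above and 6.35% below). Lysosome and endosome genes reach 40.7% above, and S-phase genes 46.5% below.

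Lists for squamous, matrix, hypoxia and early response genes are given beside 13.1% above and 6.35% below among all genes. Of 30 keratinocyte differentiation genes, 2 lay above and 2 below, among them S100A9, an antimicrobial calcium-binding protein of stressed epithelium, which read 0.06 on siNT, 1.21 on siAURKA-1 and 0.00 on siAURKA-2, against -0.53 on DMSO and -0.92 on MLN8237. S100A9 had a gap of 0.53 and a wide spread within the siRNA arm. Of 11 basal epithelial genes, 1 lay above and 0 below. Of 22 mesenchymal and matrix genes, 2 lay above and 0 below, with FN1, fibronectin, at a gap of 0.13 in 7 of 8 probe sets. Of 21 hypoxia and glycolysis genes, 1 lay above and 4 below (19.0%), with ADM, a vasodilator peptide, at a gap of -0.32. Of 22 immediate early genes, 1 lay above and 1 below, and EGR1 was the gene below. Of markers for cells that a carcinoma line should lack, 0 of 9 fibroblast markers were separated, 2 of 9 leukocyte markers (22.2%) lay above and 1 of 8 endothelial markers (12.5%) lay below. The gaps of these 3 genes, CD3D, CD68 and CLDN5, were 0.01, 0.06 and 0.00, and 0 of the 2 probe sets of CD68 were separated the same way. In the keratinocyte, basal, mesenchymal, hypoxia and immediate early lists, leaving out DMSO gave 4, 1, 4, 4 and 2 genes above and 2, 1, 2, 4 and 5 below. Under this omission 26.4% of all genes lay above and 12.5% below. By the same omission, and beside the same shares of all genes, 3 fibroblast, 2 leukocyte and 2 endothelial markers lay above, and 0, 1 and 2 lay below.

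Separated genes also differed in size. The median span from start to end of the gene was 34.3 kb for genes above, 17.8 kb for genes below and 25.7 kb for all genes with a RefSeq entry. Genes whose gap exceeded the range within either arm had median spans of 40.9 kb above and 20.2 kb below. The part of gene span in the separation was not tested.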

How the data were processed

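Total RNA of GFP-SAS cells (ISOGEN) received biotin through a 3 prime in vitro transcription kit and was read on Affymetrix GeneAtlas arrays, per the labels. The authors' deposited values, taken as log2, came from robust multi-array average (RMA), per the submitters' processing notes. For software, version, log base and centring, nothing is given in the sources used here. The median over arrays was 0 in 49386 of 49386 probe sets, and 52.1% were at 0 on 2 or more arrays, so ties are common and no filter on low signal was possible. The number of arrays limits precision.

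The 45259 probe sets naming 1 gene gave 18239 genes by the median, of which 6416 had 1 probe set. The 93 control probe sets, 1327 naming several genes and 2713 without a listed gene were left out, except 6 control probe sets that name ACTB or GAPDH. Symbols were updated by Entrez number for 45178 probe sets. Separation used a tolerance of 1e-09. The arms were fitted with limma 3.58.1 (lmFit, eBayes, R 4.3.3) with Benjamini-Hochberg adjustment over all genes, and the code was tested on simulated data. Promoters came from RefSeq (GRCh38.p14). The 15 widest gaps each way were named, with AURKA, up to 4 members of each list by arm difference and genes near the thresholds. Other list members were chosen after their values were seen. Members and lists (604 entries, 560 measured) were chosen with earlier results of these data known.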

Additional observations from a re-analysis of the deposited data

Results flagged for a closer look

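Signal in probe sets outside the gene measurement differed between the arms. All 9 probe sets of the hybridization controls and 22 of the 24 probe sets of the poly-A control RNAs lay higher on the siNT, siAURKA-1 and siAURKA-2 arrays than on both DMSO and MLN8237. Their median gaps were 0.12 and 0.11, and their part in the gene results was not tested.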

How the results depend on the processing

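With the mean of probe sets or with quantile normalization, the 15 widest gaps on each side kept their side. Under the mean this was fixed in advance for all of these genes but ACSL5 and DNAJB9. Every probe set of the others was separated the same way, and so their mean had to be. Without probe sets ending in _s_at, _x_at or _a_at (the suffixed types), 12 of these 30 genes could be measured. ACSL5 was then no longer separated (gap 0.00), and its 2 probe sets left out both end in _a_at. Centring on array medians, which were 0, changed nothing, and omitting an array cannot undo a separation. Of 124 named genes, the gap moved by more than the spread within the arms in 27 under quantile normalization and 23 without siNT. It moved by more than that spread in 16 without MLN8237, 11 without DMSO, 10 without siAURKA-2 and 6 without siAURKA-1. The same held for 5 of those measured without the suffixed types. Leaving out the suffixed types gave 1190 genes above and 383 below at any gap, and 6 above at 1.5-fold. With a gap over the range within either arm, it gave 166 above and 30 below. Requiring every probe set to separate gave 975 and 581, and 155 and 55 over the range. A separated gene with 1 probe set meets this rule automatically. Among separated genes with 2 or more probe sets, every probe set agreed in 318 of 1728 above (18.4%) and 152 of 729 below (20.9%). Genes with 2 or more probe sets numbered 1728 and 729, 5 above at 1.5-fold, and 59 below over the range. Quantile normalization gave 49 above and 13 below at 1.5-fold, and 273 below over the range. Counts by the size of the gap were 2385 above and 1158 below at any gap, 1 above at 2-fold and 0 at 3-fold. Levelling arrays on the hybridization controls, added after seeing the data, moved the median difference of all genes to -0.20 and gave 216 above and 11601 below, 4 and 7 at 1.5-fold, and 35 and 3591 over the range, so the split by side depends on the scaling. Under it, 15 of the 15 widest above and 15 of the 15 widest below kept their side. Both counts were fixed in advance, since the shift widens every gap below and is too small to close the widest gaps above. Leaving out 1 array can only add separated genes, so these counts are no sign of stability: 3479 to 4821 above and 1894 to 3219 below, 29 to 57 and 5 to 58 at 1.5-fold, and 949 to 1495 and 412 to 1037 over the range. limma called 0 genes in every setting run. The cause of these shifts was not tested. No paired analysis was possible because each treatment had 1 array.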
